A study of Mus musculus with 24 samples.

Results

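The 7 genes described here encode the transcription factors of the Runx family (Runx1, Runx2 and Runx3) and of the nuclear factor I, or Nfi, family (Nfia, Nfib, Nfic and Nfix). They were taken by gene name from the 28109 genes of the deposited RNA-seq table, where each of the 7 had 1 row. All 7 passed the filter on low counts in both cell types, Runx3 in PMs with 1 to 28 counts per library and Nfia in C2C12 cells with 4 to 46. Their transcripts were measured in 24 libraries of cultured mouse myoblasts, 12 from C2C12 cells, an immortalised myoblast line of the C3H strain, and 12 from primary myoblasts (PMs) of C57/B6 mice a few weeks old. Within each cell type there were 6 groups of 2 biological replicates. Cells received either an siRNA against luciferase (siControl) or siRNA pools against Tead1 and Tead4 together (siTead1/4). RNA was taken 24 h after transfection, before the change to differentiation medium (day 0). It was also taken on days 3 and 6 in medium with 2% horse serum, in which myoblasts form myotubes. The comparisons asked how each member's transcript level differed between siTead1/4 and siControl cells, between days, and between the 2 cell types.

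Runx proteins share a DNA-binding runt domain, work as dimers with Cbfb, and either activate or repress their targets with cofactors of the Tle and Cbfa2t families. Runx1 is best known from blood stem cells, is induced in denervated muscle and acts with Myod1 and AP-1 proteins in myoblasts. Runx2 is the factor that commits cells to bone, and Runx3 is known from sensory neurons and T cells. Nfi proteins bind as dimers to a palindrome made of TTGGC half-sites, and Nfix is known for the switch from the embryonic to the fetal muscle programme. Tead1 and Tead4, the silenced genes, encode factors that bind CATTCC elements and recruit Yap1 and Wwtr1.

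The sequences that follow show what the 3 Runx genes share beside their upstream starts, a pair of adjacent RUNX motifs. Each line gives 30 bases read 5′ to 3′ on the strand of the gene from the mm9 genome, located through start-site windows of RefSeq (build GRCm38.p6), and the capitals mark ACCACA, the reverse complement of the RUNX motif TGTGGT.
Runx1: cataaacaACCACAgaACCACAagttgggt
Runx2: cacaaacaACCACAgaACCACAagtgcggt
Runx3: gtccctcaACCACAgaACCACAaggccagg
The Runx1 stretch lies at chr16:92826270-92826299 on the minus strand, in annotated untranslated exon sequence, 21 to 50 bases downstream of the RefSeq start. The Runx2 stretch lies at chr17:44951532-44951561 on the minus strand, in annotated coding sequence, 16 to 45 bases downstream of the start. The Runx3 stretch lies at chr4:134676418-134676447 on the plus strand, before the start, and ends 120 bases upstream of the gene as the table gives it. The longest run common to all 3 was 18 bases, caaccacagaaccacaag, and 4 of 32851 start-site windows held it on either strand. These were the windows of Runx1, Runx2 and Runx3 and that of Gm16225, which overlaps the Runx3 window on the other strand.

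Over all 32851 windows of 300 bases, 16.8% held TGTGGT on either strand, 1.81% held it at 2 or more positions, 14.7% held CATTCC and 46.7% held TTGGC. Among the members, TGTGGT was found in 1 of 2 Runx1 windows, in the 1 Runx2 window, in 1 of 2 Runx3 windows and in 2 of 4 Nfix windows, and the letters were not in the window of Nfia or Nfic. CATTCC was found once, 55 bases upstream of the second Runx1 start. Counts per gene do not separate transcripts by start site, so these matches describe the windows and were not compared with levels.

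Library totals ranged from 25453830 to 52784510 counts in C2C12 cells and from 32571583 to 51110723 in PMs. The unit of level is CPM, in which each library's counts are put on one common total with trimmed-mean (TMM) sizes. Tead1 was at 70.5 to 151 CPM in siControl and 4.50 to 77.0 CPM in siTead1/4 C2C12 cells over the 3 days, and at 151 to 289 against 50.1 to 142 CPM in PMs. Tead4 was at 18.7 to 150 against 4.28 to 57.2 CPM in C2C12 cells and at 59.5 to 197 against 11.1 to 59.2 CPM in PMs. Tead4 was called lower at days 0 and 3 in both cell types and at day 6 in PMs, and Tead1 at days 0 and 3 in PMs. At day 0 in C2C12 cells, Tead1 was at 28.9 and 4.50 CPM in siTead1/4 against 70.5 and 113 CPM in siControl libraries. By day 6 it was at 70.6 and 77.0 against 76.0 and 136 CPM, so little reduction of Tead1 remained there. The replicates of the 3 siTead1/4 C2C12 groups stood further apart than those of the other 9 groups. Over genes, log2 differences within a replicate pair had an SD of 0.629 to 0.737 in these 3 groups and of 0.417 to 0.570 in the others. All 10 myogenic markers were above 3 counts in both libraries of every group, with summed levels of 646 to 20000 CPM in C2C12 cells and 9130 to 34000 CPM in PMs. Ptprc, which marks all white blood cells, did not exceed 1 count in C2C12 cells and 3 counts in PMs, whereas Itgam reached 73 and 237 counts and Cd68 84 and 85.

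To compare genes, levels were divided by the gene length in the table, giving CPM per kilobase. On this scale Nfic and Nfix were the most abundant members, with medians of 49.4 and 43.9 over the 12 C2C12 libraries and of 52.0 and 40.7 over the 12 PM libraries. Runx1 followed at 27.8 and 32.9. In C2C12 cells, Runx3 came next at 10.4, ahead of Nfib at 4.41 and Runx2 at 4.33, and Nfia was lowest at 0.0339. In PMs, Nfib came next at 3.25, ahead of Runx2 at 1.54 and Nfia at 1.34, and Runx3 was lowest at 0.0489. Within both cell types the ranges of Nfic and Nfix overlapped, from 31.8 to 57.8 and 24.4 to 63.4 in C2C12 cells and from 35.4 to 64.6 and 16.2 to 49.1 in PMs. Those of Nfib and Runx2 overlapped as well, from 3.00 to 7.51 and 2.17 to 7.27 in C2C12 cells and from 1.91 to 4.26 and 1.12 to 8.42 in PMs. The deposited length of Nfib, 9636 bases, is below the 14957 exonic bases of its GENCODE annotation, so its place in this order depends on the length used.

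Taken as shares of the family sum per kilobase, the Runx family differed in make-up between the cell types while the Nfi family was led by the same pair. In siControl C2C12 cells at day 0, Runx3 made up 41.9% ± 2.78 (SD, n = 2) of the Runx sum, Runx1 37.6% ± 2.77 and Runx2 20.5% ± 0.00803. By day 3, Runx1 had 71.6% ± 1.18 and Runx3 21.2% ± 2.25. In siControl PMs, Runx1 already had 76.6% ± 0.0548 at day 0 and 96.2% ± 0.0132 at day 3, and Runx2 went from 23.4% ± 0.110 to 3.74% ± 0.0800. By group means, Runx1 was the leading Runx transcript in every group except siControl C2C12 cells at day 0. There Runx3 and Runx1 were almost level in replicate 1, at 39.9% and 39.6%, and further apart in replicate 2, at 43.8% and 35.7%. In siTead1/4 C2C12 cells at day 0 the Runx1 share of 43.0% ± 9.35 overlapped that of Runx3, 37.6% ± 8.22.

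Of the Nfi sum, Nfic made up 59.4% ± 4.36 and Nfix 35.7% ± 4.67 in siControl C2C12 cells at day 0. In siControl PMs at day 0 the figures were 66.6% ± 1.27 and 27.5% ± 1.27, and at day 3 they were 51.5% ± 2.79 and 44.0% ± 2.86. In siTead1/4 C2C12 cells Nfix had the larger mean share at day 3, 53.8% ± 9.73 against 39.3% ± 10.2 for Nfic, and at day 6, 51.1% ± 7.44 against 42.8% ± 7.67. Within libraries at day 3, Nfix had 60.6% against 32.1% for Nfic in replicate 1, and the 2 were almost level in replicate 2, at 46.9% and 46.5%. At day 6 Nfix was ahead in replicate 1, with 56.4% against 37.4%, and behind in replicate 2, with 45.9% against 48.2%. Nfib stayed between 3.05% and 6.86% and Nfia at or below 2.11% in all group means.

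**Figure D1:**
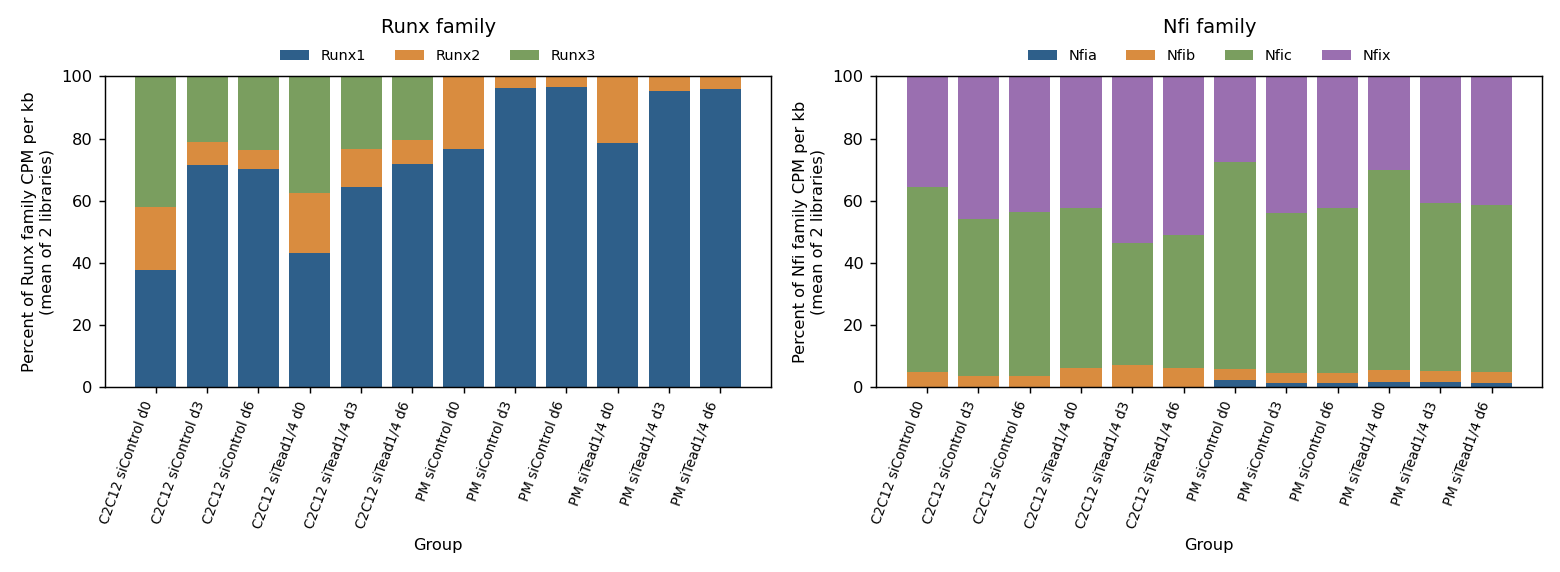
Share of each member in the summed CPM per kilobase of its family, in percent, as stacked bars for the 12 groups (mean of 2 libraries; d0, d3 and d6 are days). Runx3 fills 41.9% of the Runx bar of siControl C2C12 cells at day 0 and is not visible in any PM bar, while Nfic and Nfix fill most of every Nfi bar.

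Runx1 was the Runx gene that rose during C2C12 differentiation. Its level in siControl C2C12 cells was 109 and 91.7 CPM at day 0, 269 and 231 on day 3, then 202 and 238 on day 6. In siControl PMs it was 194 and 214 CPM at day 0, 280 and 293 on day 3, then 232 and 340 on day 6. Both C2C12 libraries of day 3 and of day 6 were above both of day 0, and the PM libraries of day 3 and day 6 were likewise above those of day 0, by less. By edgeR's quasi-likelihood test the log2 fold change from day 0 in C2C12 cells was 1.27 ± 0.35 (SE) at day 3 (adjusted p = 0.0148) and 1.09 ± 0.34 at day 6 (adjusted p = 0.0271). In PMs it was 0.43 ± 0.16 (adjusted p = 0.0397) and 0.42 ± 0.16 (adjusted p = 0.0428), below the fold threshold of 1 on the log2 scale that a call required. The C2C12 calls rest on few libraries. Without 1 library the adjusted p ranged from 0.0434 to 0.0928 at day 3 and from 0.062 to 0.137 at day 6, and the call was lost without either replicate of day 0 or without replicate 1 of day 3, and without any 1 of the 4 libraries behind the day 6 value.

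Runx2 fell in both cell types, and further in PMs. In siControl C2C12 cells it was at 62.3 and 57.9 CPM at day 0, 32.4 and 23.0 on day 3, then 23.6 and 18.6 on day 6. In siControl PMs it started at a like level, 65.0 and 72.2 CPM, and was at 12.2 and 12.3 at day 3 and at 9.61 and 12.0 at day 6. No library of day 3 or day 6 reached the lowest of day 0. The log2 fold change was −1.16 ± 0.23 at day 3 (adjusted p = 0.00314) and −1.55 ± 0.24 at day 6 (adjusted p = 0.00057) in C2C12 cells. In PMs it was −2.54 ± 0.15 (adjusted p = 3.89e-07) and −2.73 ± 0.15 (adjusted p = 2.28e-07). Without replicate 2 of day 3 the C2C12 value at day 3 was −0.94 (adjusted p = 0.0421), under the fold threshold. The difference between the cell types in this change was itself past the thresholds, with −1.37 ± 0.27 at day 3 (adjusted p = 0.00251) and −1.16 ± 0.27 at day 6 (adjusted p = 0.00771), PM minus C2C12. The day 6 difference came just under the fold threshold without replicate 1 of the day 6 libraries, either of PMs (−0.998, adjusted p = 0.0476) or of C2C12 cells (−0.97, adjusted p = 0.0419).

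In bulk RNA, a lower level can come from fewer cells that express a gene or from less RNA per cell, and these cannot be told apart here. The summed level of the bone and cartilage markers was 79.8 to 88.9 CPM in siControl PMs at day 0, 2.69 to 2.88 on day 3 and 1.36 to 1.66 on day 6, lower at the later days as was Runx2. In siTead1/4 PMs at day 0 it was higher, 141 to 145 CPM, although Runx2 was not higher there than in siControl PMs. At day 0 the sum in PMs was mostly Sp7, the bone factor downstream of Runx2, with a maximum of 144 CPM over the 12 PM libraries against 10.1 CPM in C2C12 cells. Bglap, a gene of osteocalcin, did not exceed 3 counts in any library. The related gene Bglap2, which is not in this marker list, reached 31 counts in C2C12 cells and 6 in PMs. Ibsp, the gene of bone sialoprotein, did not exceed 1 count. The part of these markers in the Runx2 result was not tested.

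Runx3 was a C2C12 transcript. In siControl C2C12 cells it was at 68.4 and 69.8 CPM at day 0, 45.3 and 46.1 at day 3, and a mean of 46.1 ± 5.57 (SD, n = 2) at day 6, with 1271 to 3930 counts over all 12 libraries. In PMs it gave 7 and 1 counts in the siControl libraries of day 0, 1 and 11 on day 3, then 6 and 17 on day 6. Those PM counts correspond to 0.0281 to 0.554 CPM, far below every C2C12 library. In C2C12 cells the log2 fold change from day 0 was −0.64 ± 0.19 at day 3 (adjusted p = 0.0228) and −0.63 ± 0.19 at day 6 (adjusted p = 0.0229), both under the fold threshold.

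**Figure D2:**
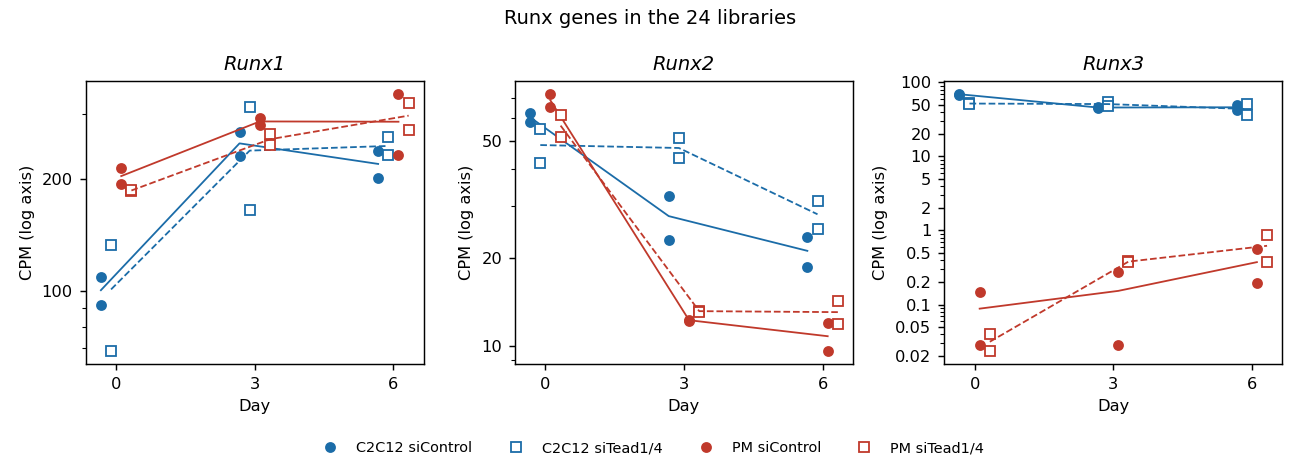
Levels of Runx1, Runx2 and Runx3 in CPM (log axis) by day, with a point for each of the 24 libraries and lines through the group means. Runx2 declines in both cell types and lies between 9.61 and 14.2 CPM in all PM libraries of days 3 and 6, and the Runx3 points of the 2 cell types do not overlap.

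Among the Nfi genes, Nfix rose in PMs. Its level in siControl PMs was 127 and 116 CPM at day 0, 332 and 343 on day 3, then 306 and 294 on day 6. In siControl C2C12 cells it was 259 and 214 CPM at day 0, 332 and 337 on day 3, then 269 and 323 on day 6. The PM libraries of days 3 and 6 were all above those of day 0 by more than the replicates differed, and the later C2C12 libraries were above those of day 0 by less. The log2 fold change in PMs was 1.42 ± 0.12 at day 3 (adjusted p = 3.46e-06) and 1.24 ± 0.12 at day 6 (adjusted p = 7.18e-06). In C2C12 cells it was 0.46 ± 0.35 (adjusted p = 0.329) and 0.28 ± 0.35 (adjusted p = 0.55). The difference between the cell types did not pass this test, with 0.97 ± 0.39 at day 3 (adjusted p = 0.119) and 0.98 ± 0.39 at day 6 (adjusted p = 0.115). Over the alternative settings that kept all libraries, it was 0.951 to 0.988 and 0.948 to 0.981, just under the fold threshold. The lowest adjusted p among those settings was 0.033 at day 3 and 0.0297 at day 6. The summed level of the myogenic markers rose over the same days. In siControl PMs it went from 10500 to 11100 CPM at day 0 to 32600 to 34000 CPM at day 3. In siControl C2C12 cells it went from 1120 to 1300 CPM to 16800 to 19000 CPM. At day 3, 5 of the 10 markers were called higher and 3 lower in PMs, and 7 higher and 0 lower in C2C12 cells. Of 6 Schwann cell markers, Erbb3, which reached 397 CPM in C2C12 cells and 364 CPM in PMs and made up most of their sum, rose in both, by 5.83 ± 0.44 and 1.46 ± 0.13, while Ngfr fell in C2C12 cells, at −6.85 ± 0.46, and Sox10 did not exceed 1 count there. The part of these markers in the Nfix and Runx1 results was not tested.

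Nfic, with Nfix the main Nfi transcript, was nearly level. In siControl C2C12 cells it was at 342 and 377 CPM at day 0, 343 and 331 on day 3, then 337 and 314 on day 6. In siControl PMs it was at 268 and 269 CPM at day 0, 386 and 337 on day 3, then 349 and 343 on day 6. The later PM libraries were all above those of day 0, with a log2 fold change of 0.38 ± 0.12 at day 3 (adjusted p = 0.0206), under the fold threshold. In C2C12 cells day 3 overlapped day 0 and day 6 lay just below it, with −0.13 ± 0.22 and −0.18 ± 0.22.

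Nfib was a minor member in both cell types. Its levels in siControl C2C12 cells were 41.9 and 45.5 CPM at day 0, 30.1 and 38.2 on day 3, then 28.9 and 32.9 on day 6. In siControl PMs they were 21.3 and 23.3, then 35.9 and 30.0, then 32.4 and 26.0. The later libraries were below those of day 0 in C2C12 cells and above them in PMs. Neither change was called: the log2 fold change at day 3 was −0.40 ± 0.26 in C2C12 cells (adjusted p = 0.251) and 0.51 ± 0.16 in PMs (adjusted p = 0.0191). The difference between the cell types was 0.92 ± 0.31 (adjusted p = 0.0634).

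Nfia was the counterpart of Runx3, a PM transcript. In siControl PMs it was at 15.8 and 12.7 CPM at day 0, 13.2 and 15.8 on day 3, then 12.1 and 17.7 on day 6. In siControl C2C12 cells it gave 4 and 12 counts at day 0, 16 and 18 on day 3, then 46 and 7 on day 6. The PM libraries of the 3 days overlapped, with log2 fold changes of −0.03 ± 0.20 at day 3 (adjusted p = 0.903) and −0.01 ± 0.20 at day 6 (adjusted p = 0.983). In C2C12 cells the fitted change at day 6 was 1.74 ± 0.77 (adjusted p = 0.093), and most of the day 6 counts were from 1 library.

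**Figure D3:**
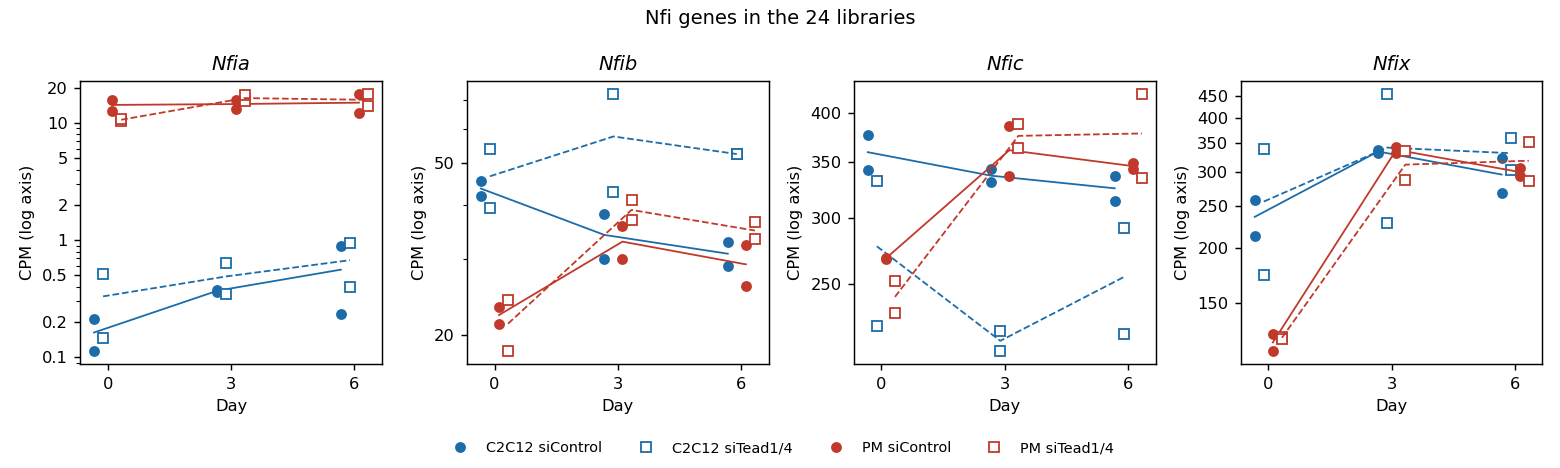
Levels of Nfia, Nfib, Nfic and Nfix in CPM (log axis) by day, with a point for each of the 24 libraries and lines through the group means. Nfix goes from 116 to 127 CPM at day 0 to 288 to 343 CPM at day 3 in PMs, and Nfia lies below 1 CPM in all C2C12 and above 10 CPM in all PM libraries.

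Of the 7 members, 2 were called at each of days 3 and 6 against day 0 in siControl C2C12 cells (Runx1 higher, Runx2 lower), where 28.7% and 31.1% of all genes tested were called. In siControl PMs, 2 were called at each day (Nfix higher, Runx2 lower), against 32.3% and 35.5% of genes. These shares of members are close to the background. All comparisons with day 0 of one siRNA share its day 0 libraries. Comparing day 6 with day 3 in siControl cells, none of the 7 was called in either cell type by edgeR or DESeq2 and none had an unadjusted p under 0.05. In the C2C12 comparison 0% of genes were called by edgeR, with 406 genes at an unadjusted p under 0.05 and 19 called by DESeq2, and in PMs 2.80% were called.

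**Figure D4:**
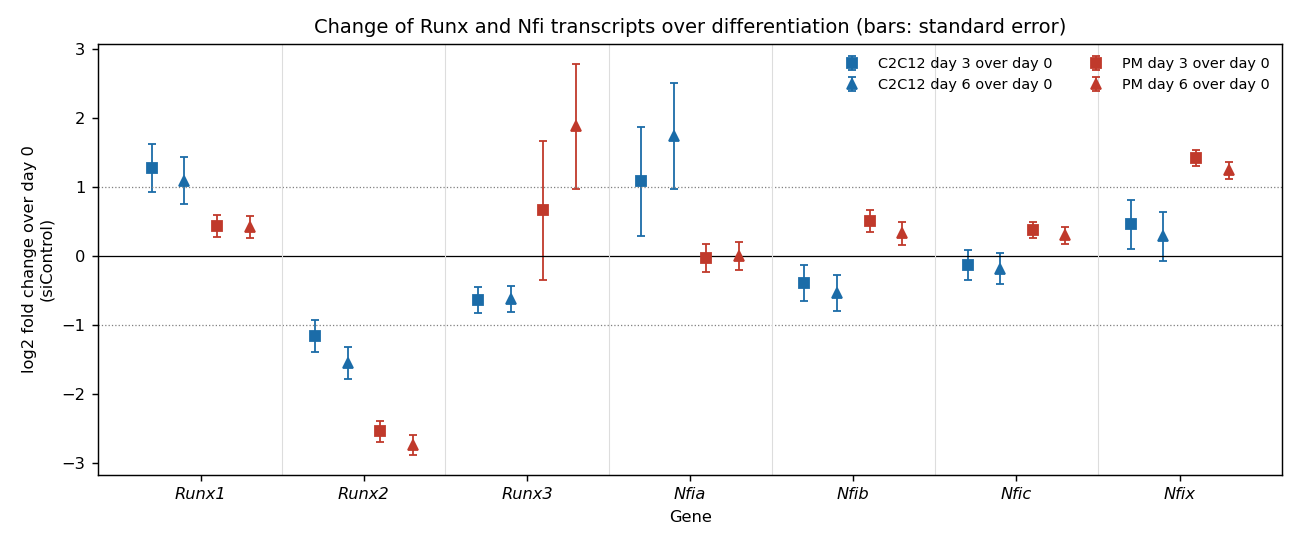
Fitted log2 fold change of each member at day 3 and day 6 against day 0 in siControl cells (points, with standard errors as bars). Dotted lines mark the fold threshold of 1 on the log2 scale, which Runx2 passes downward in both cell types, Runx1 upward in C2C12 cells and Nfix upward in PMs, each of them called. Nfia in C2C12 cells at both days (1.08 and 1.74) and Runx3 in PMs at day 6 (1.88) also lie past it, with wide bars from counts of 1 to 46, and were not called.

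After Tead1/4 silencing, none of the 7 members was called at any day in either cell type, by edgeR or by DESeq2. The background was low as well, with 0.438%, 1.27% and 0.0457% of genes called at days 0, 3 and 6 in C2C12 cells and 2.60%, 3.30% and 0.743% in PMs. Without 1 library, the C2C12 counts of 67, 195 and 7 genes ranged from 0 to 113, 2 to 429 and 0 to 2, and the PM counts of 420, 532 and 120 from 155 to 207, 240 to 452 and 35 to 78. At an unadjusted p under 0.05 there were 1, 3 and 1 members in C2C12 cells and 0 at each day in PMs, where 1603, 2180 and 1064 of 15303 genes in C2C12 cells and 3756, 3668 and 1914 of 16144 genes in PMs were under it. Outside Runx3, the PM log2 fold changes lay between −0.43 and 0.27 with standard errors of 0.12 to 0.20. In C2C12 cells the standard errors were larger, 0.19 to 0.35 for the 6 members other than Nfia.

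Runx2, Nfib and Nfic were the members under an unadjusted p of 0.05 at day 3 in C2C12 cells. Nfia had a larger fitted value at day 0, 1.03 ± 0.81 (adjusted p = 0.75), on 4 and 12 counts in siControl against 22 and 4 in siTead1/4 cells, and it was −0.20 without replicate 1 of the siTead1/4 libraries. Runx2 in siTead1/4 C2C12 cells was at 54.8 and 41.9 CPM at day 0, 50.9 and 43.6 on day 3, then 31.1 and 25.1 on day 6. At days 3 and 6 both siTead1/4 libraries were above both siControl libraries, and at day 0 both were below them. The log2 fold change was −0.32 ± 0.23, 0.75 ± 0.23 and 0.42 ± 0.23 at the 3 days, with adjusted p of 0.72, 0.159 and 0.826. Over the alternative settings that kept all libraries, the day 3 value ran from 0.737 to 0.77, under the fold threshold. The lowest adjusted p among those settings was 0.027.

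Nfib in siTead1/4 C2C12 cells was at 53.9 and 39.4 CPM at day 0, 72.3 and 43.0 on day 3, then 52.6 and 52.4 on day 6. Both libraries exceeded both siControl libraries at days 3 and 6, with overlap at day 0. Its log2 fold change was 0.73 ± 0.26 at day 3 (adjusted p = 0.221) and 0.77 ± 0.26 at day 6 (adjusted p = 0.507). At day 3 it was 0.32 without replicate 1 and 1.07 without replicate 2 of the siTead1/4 libraries.

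Nfic went the other way, at 332 and 223 CPM at day 0, 220 and 208 on day 3, then 218 and 292 on day 6 in siTead1/4 C2C12 cells. Each of these was below every siControl library of its day. The log2 fold change was −0.38 ± 0.22, −0.68 ± 0.22 and −0.35 ± 0.22, with adjusted p of 0.619, 0.179 and 0.869. Over the alternative settings that kept all libraries, the day 3 value ran from −0.691 to −0.657, under the fold threshold. The lowest adjusted p among those settings was 0.0394. In PMs, Nfic was at 231 and 252, 364 and 388, and 422 and 335 CPM in siTead1/4 cells, with a day 3 fold change of 0.05 ± 0.12. At day 0 both of these PM libraries were below both siControl libraries, with −0.16 ± 0.12 (adjusted p = 0.466).

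Runx1 and Nfix showed the distance between the C2C12 siTead1/4 replicates. Runx1 was at 133 and 68.7 CPM at day 0, 313 and 165 on day 3, then 232 and 260 on day 6. Nfix was at 339 and 174 CPM, 454 and 229, and 359 and 304. At days 0 and 3 the siControl libraries of both genes lay between the 2 siTead1/4 replicates, replicate 1 above and replicate 2 below. The log2 fold change at day 3 was −0.09 ± 0.34 for Runx1 and 0.01 ± 0.35 for Nfix. Runx3 was at 52.7 and 50.7 CPM at day 0 in siTead1/4 C2C12 cells, below both siControl libraries, with −0.42 ± 0.19 (adjusted p = 0.477), then above both at day 3, at 54.2 and 47.5 CPM with 0.13 ± 0.19 (adjusted p = 0.85), and overlapping them at day 6.

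In PMs the siTead1/4 libraries lay close to the siControl ones for most members. Runx1 was at 186 and 187 CPM at day 0, 248 and 265 on day 3, then 272 and 322 on day 6. Runx2 was at 51.6 and 61.0 CPM, 13.2 and 13.1, and 11.9 and 14.2. Nfix was at 125 and 124, 288 and 336, and 351 and 286 CPM. At day 0 both Runx1 and Runx2 were lower than in the siControl libraries, with −0.14 ± 0.16 (adjusted p = 0.653) and −0.29 ± 0.14 (adjusted p = 0.232). At day 3 Runx1 was below both siControl libraries, with −0.17 ± 0.16 (adjusted p = 0.603), and Runx2 above both, with 0.10 ± 0.14 (adjusted p = 0.757). Nfia was at 10.4 and 10.9 CPM at day 0, below both siControl libraries, with −0.43 ± 0.20 (adjusted p = 0.233), then at 15.3 and 17.3, and 14.0 and 17.5 CPM. Nfib was at 18.4 and 24.2, 41.1 and 36.9, and 36.5 and 33.4 CPM, with fold changes from −0.07 to 0.26. At days 3 and 6 both of its siTead1/4 libraries were above both siControl libraries, with 0.23 ± 0.16 (adjusted p = 0.437) and 0.26 ± 0.16 (adjusted p = 0.622).

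**Figure D5:**
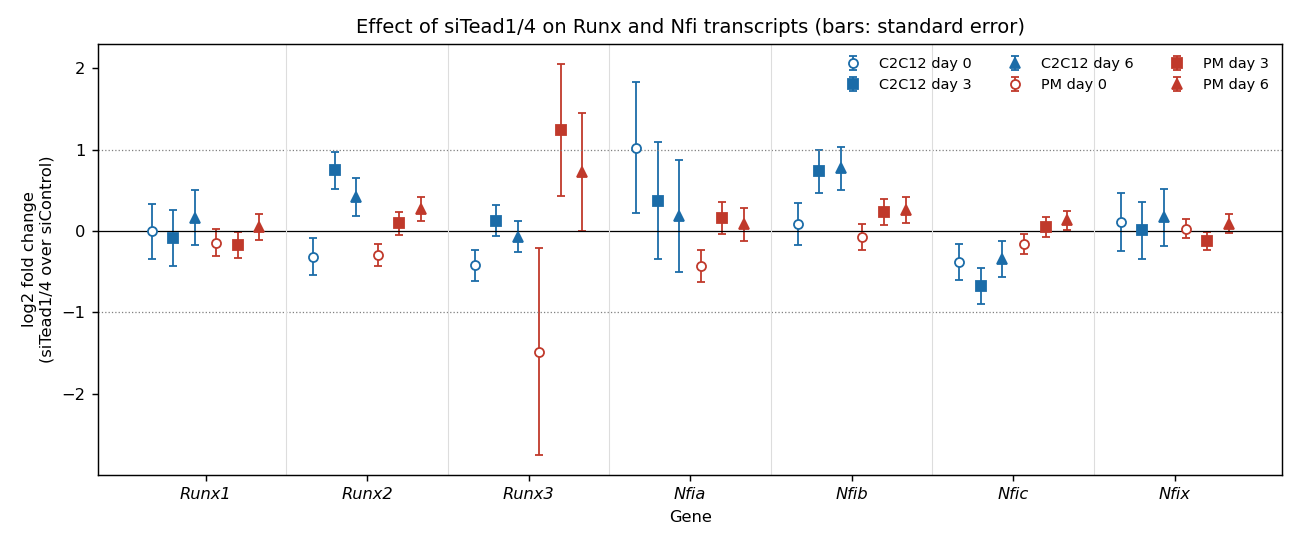
Fitted log2 fold change of each member, siTead1/4 over siControl, at days 0, 3 and 6 in C2C12 cells and PMs (points, with standard errors as bars, and dotted lines at the fold threshold). No point was called, and the Runx2 and Nfib points of C2C12 cells at day 3 sit at 0.75 and 0.73, with Nfic at −0.68.

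The effect of silencing was compared between the cell types directly. None of the 7 members differed past the thresholds at any day, against 0.00591%, 1.25% and 0.0354% of genes at days 0, 3 and 6. At day 3, 2 members had an unadjusted p under 0.05, Nfic with 0.71 ± 0.25 (adjusted p = 0.204) and Runx2 with −0.67 ± 0.27 (adjusted p = 0.294), PM minus C2C12, where 2205 of 16926 genes were under it, and DESeq2 called none.

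In siTead1/4 C2C12 cells, 1 member was called against day 0 at each of days 3 and 6, against 24.6% and 25.1% of genes. It was Runx1, with 1.19 ± 0.35 at day 3 (adjusted p = 0.0229) and 1.26 ± 0.35 at day 6 (adjusted p = 0.0178). Without replicate 1 of day 3 or replicate 2 of day 0 the day 3 value was 0.68 (adjusted p = 0.164) or 0.81 (adjusted p = 0.125). The day 6 value without replicate 2 of day 0 or of day 6 was 0.88 (adjusted p = 0.0977) or 1.18 (adjusted p = 0.0665). Runx2 was at a fold change of −0.10 ± 0.23 at day 3 (adjusted p = 0.777) and −0.81 ± 0.23 at day 6 (adjusted p = 0.0205, under the fold threshold).

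Whether the change of Runx2 from day 0 differed between siTead1/4 and siControl C2C12 cells was tested as an interaction, added after the data were seen. At day 3 the difference was 1.07 ± 0.33 (unadjusted p = 0.0081, adjusted p = 0.233) and at day 6 it was 0.74 ± 0.33 (adjusted p = 0.581), siTead1/4 minus siControl. No member was called at either day, nor was any gene (0% by edgeR at both days, with 1745 and 1298 genes at an unadjusted p under 0.05, and 328 and 159 genes called by DESeq2, none a member). With all 24 libraries in 1 fit, the Runx2 difference at day 3 was 1.08 (adjusted p = 0.0424), and over all alternatives, left-out libraries included, its adjusted p ranged from 0.0424 to 0.628. The myogenic markers summed to 6690 to 8880 CPM in siTead1/4 and 16800 to 19000 CPM in siControl C2C12 cells at day 3, and the part of this difference in the Runx2 values was not tested.

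In siTead1/4 PMs, 3 members were called against day 0 at each of days 3 and 6, against 28.3% and 31.9% of genes. Runx2 was lower by −2.15 ± 0.14 (adjusted p = 1.21e-06) and −2.17 ± 0.15 (adjusted p = 8.86e-07) on the log2 scale, and Nfix higher by 1.27 ± 0.12 (adjusted p = 9.36e-06) and 1.30 ± 0.12 (adjusted p = 6.22e-06). Runx3 was the third, at 1 and 2 counts at day 0, 18 and 15 on day 3, then 13 and 28 on day 6. Its ratio to day 0 was 11.8 at day 3 (95% exact interval 3.70 to 60.2) and 19.0 at day 6 (6.07 to 96.0), where the intervals cover counting error only. In siControl PMs the ratio was 1.65 (0.62 to 4.65) and 3.86 (1.67 to 9.99). The Runx3 call at day 3 was lost without any of 3 of its 4 libraries, with adjusted p of 0.0527 to 0.0842. In siControl PMs Runx3 had 1 to 17 counts, so it passed the filter in PMs largely through the later siTead1/4 libraries, where it was high. Its calls are therefore given as a description. Nfib and Nfic were higher at both days at an adjusted p of 0.00158 to 0.00524, by 0.58 to 0.81, under the fold threshold. The added interaction called no member in PMs, against 0.328% and 0.626% of genes at days 3 and 6, and the member with the lowest adjusted p was Nfia at day 3 with 0.59 ± 0.28 (adjusted p = 0.407) and Runx2 at day 6 with 0.57 ± 0.20 (adjusted p = 0.238).

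The largest differences of all were between the cell types. Line against primary culture, strain and cell type cannot be told apart in these comparisons. The cells also differed in myogenic markers at day 0, when 9 of 10 were called higher in PMs. Their sum was then 10500 to 11100 CPM in siControl PMs and 1120 to 1300 CPM in siControl C2C12 cells. The part of this difference in these values, and in the comparisons of change from day 0, was not tested. In siControl cells, 3 members were called at day 0 (Runx3, Nfia and Runx1), 3 at day 3 (Runx3, Nfia and Runx2) and 2 at day 6 (Runx3 and Nfia), where 26.8%, 29.8% and 24.9% of genes were called. Runx3 was lower in PMs by −9.45 ± 0.53 at day 0 (adjusted p = 7.04e-10), −8.14 ± 0.50 at day 3 (adjusted p = 3.41e-09) and −6.93 ± 0.46 at day 6 (adjusted p = 9.4e-09) on the log2 scale. From the pooled counts, the ratio of C2C12 to PM levels was 716 (95% exact interval 363 to 1660), 287 (164 to 556) and 120 (80.1 to 190). These intervals cover counting error only, and single PM libraries moved the log2 values further. At day 0 the value was −11.135 without PM replicate 1 and −8.86 without PM replicate 2, on day 3 it was −7.37 and −10.53, and on day 6 it was −6.39 and −7.885.

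Nfia was higher in PMs by 6.36 ± 0.57 (adjusted p = 1.41e-07), 5.28 ± 0.52 (adjusted p = 6.31e-07) and 4.62 ± 0.50 (adjusted p = 2.03e-06). The ratio of PM to C2C12 levels from pooled counts was 83.0 (50.9 to 146), 39.3 (28.0 to 57.1) and 23.0 (17.4 to 30.9). Without 1 library the log2 value ranged from 6.02 to 6.91, 5.14 to 5.38 and 4.05 to 5.95, the last pair without replicate 2 and replicate 1 of the day 6 C2C12 libraries. For both genes the libraries of the 2 cell types did not overlap in any group, siTead1/4 included. Summed blood cell markers were at 0.900 to 2.39 CPM in C2C12 cells and 2.56 to 6.44 CPM in PMs, endothelial markers at 0.219 to 1.47 and 2.86 to 16.7, Schwann cell markers at 5.96 to 399 and 98.8 to 382, and fibroblast markers at 828 to 3380 and 359 to 1050. The fibroblast sum was mostly Col3a1, at 778 to 3220 and 314 to 902 CPM. Thy1 went the other way, with at most 0.0472 CPM in C2C12 cells and 11.9 to 84.0 CPM in PMs. In siControl cells, 1 of 7 tested fibroblast markers was called higher in PMs at each day, and 3, 6 and 2 were called lower at days 0, 3 and 6. Of these lists, 5 of 8 blood cell markers in C2C12 cells and 3 of 8 in PMs stayed at or under 3 counts in every library, as did Sox10 in C2C12 cells (at most 1 count), while Sox10 reached 124 counts, or 4.01 CPM, in PMs. Their part in the Nfia and Runx3 differences was not tested.

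Runx1 was higher in PMs at day 0 by 1.02 ± 0.29 (adjusted p = 0.00844), and its call was lost without replicate 2 of the C2C12 libraries (0.87, adjusted p = 0.0809) or of the PM libraries (0.93, adjusted p = 0.0535). At days 3 and 6 the Runx1 difference was 0.20 ± 0.28 and 0.38 ± 0.28. Runx2 did not differ past the thresholds at day 0 (0.19 ± 0.19, adjusted p = 0.463). It was lower in PMs at day 3 by −1.18 ± 0.20 (adjusted p = 0.000134; −0.93 without replicate 1 of the C2C12 libraries of day 3) and at day 6 by −0.97 ± 0.20 (adjusted p = 0.00101), just under the fold threshold. Nfib and Nfix were lower in PMs at day 0, by −0.97 ± 0.22 (adjusted p = 0.0022) and −0.96 ± 0.28 (adjusted p = 0.0111), also just under it. At day 3 their differences were −0.05 ± 0.22 and 0.01 ± 0.28.

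The change from day 0 in siControl cells differed between the cell types for 1 member at day 3 (Runx2) and for 2 at day 6 (Runx2 and Runx3), against 11.2% and 12.7% of genes. The Runx3 difference at day 6, 2.52 ± 0.79 (adjusted p = 0.0404), rests on PM counts of 7 and 1 at day 0 and 6 and 17 at day 6. It lost its call without any of 6 of its 8 libraries, with values of 1.59 to 2.66 and adjusted p of 0.0535 to 0.397.

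The 4 lists of genes tied to the members by general knowledge were read beside them. As background to the counts over differentiation to day 3 in siControl cells, 2450 of 15303 genes tested rose and 1940 fell in C2C12 cells. In PMs, 2821 of 16144 rose and 2398 fell. Of the 9 Runx cofactors, 1 was called in the siTead1/4 comparisons, Tle4, a corepressor, which was lower by −1.77 ± 0.34 in C2C12 cells at day 3 (adjusted p = 0.0396). The list medians there were 0.11, −0.52 and −0.30 in C2C12 cells at days 0, 3 and 6 and 0.33, 0.00 and −0.07 in PMs, with medians over all genes from −0.01 to 0.02. Cbfb, the partner that all Runx proteins need, was present throughout, at 149 to 251 CPM in C2C12 cells and 178 to 323 CPM in PMs. Over differentiation to day 3 in siControl cells, 2 of 9 rose in C2C12 cells and 3 rose and 1 fell in PMs. The corepressor gene Cbfa2t3 rose in both, by 7.84 ± 0.63 (adjusted p = 1.32e-05) in C2C12 cells and 2.31 ± 0.12 (adjusted p = 2.13e-07) in PMs. Its lowest C2C12 library held 0.0355 CPM, so the C2C12 value depends on the prior count. Tle4 rose by 1.52 ± 0.34 in C2C12 cells, Runx1t1 by 3.15 ± 0.36 and Aes by 1.12 ± 0.18 in PMs, and Tle1 was at −1.31 ± 0.13 there. The list medians were 0.35 and −0.02, against −0.01 and 0.01 over all genes.

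Of the 8 partners of Runx1 in myoblasts, Myod1 and 7 AP-1 genes, 1 was called after silencing, Fos, higher by 1.54 ± 0.23 in PMs at day 0 (adjusted p = 0.00482). The list medians after silencing were −0.18, −0.33 and 0.13 in C2C12 cells and 0.43, 0.20 and 0.22 in PMs. Over differentiation to day 3, 1 rose and 1 fell in C2C12 cells, and 3 rose and 2 fell in PMs, with medians of 0.33 and 0.22. Fosl1 fell in both, at −5.16 ± 0.38 (adjusted p = 8.21e-06) and −3.03 ± 0.21 (adjusted p = 1.08e-06), and Fos rose in both, by 2.20 ± 0.73 (adjusted p = 0.0356) and 2.07 ± 0.24 (adjusted p = 2.91e-05). In PMs, Fosb also rose by 2.29 ± 0.64 (adjusted p = 0.0101) and Myod1 fell, at −1.27 ± 0.24 (adjusted p = 0.00104).

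Of the 10 bone and cartilage targets of Runx2, 5 passed the filter on low counts in C2C12 cells and 6 in PMs. After silencing, 1 was called, Col10a1, a collagen of growth plate cartilage, higher by 1.39 ± 0.31 in PMs at day 3 (adjusted p = 0.0255). The list medians were 1.36, −0.07 and −0.13 in C2C12 cells and 0.56, 0.02 and 0.20 in PMs. In siControl cells at day 3 against day 0, where Runx2 fell, 2 of the tested targets rose and 1 fell in each cell type. Sp7 fell, at −2.09 ± 0.50 (adjusted p = 0.00763) in C2C12 cells and −5.71 ± 0.25 (adjusted p = 1.23e-07) in PMs. Col1a1, a collagen also made by fibroblasts, rose by 2.21 ± 0.57 (adjusted p = 0.0117) and 4.08 ± 0.38 (adjusted p = 7.31e-06), and Col10a1 by 3.87 ± 0.93 (adjusted p = 0.00829) and 1.68 ± 0.35 (adjusted p = 0.00187). The medians were 2.1 and 0.09, against −0.01 and 0.01 over all genes.

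Of the 8 fetal and slow muscle genes linked to Nfix, 7 passed the filter in C2C12 cells and 8 in PMs. Myh7, the slow myosin heavy chain, was lower after silencing, by −4.04 ± 0.51 in C2C12 cells at day 3 (adjusted p = 0.0135) and by −2.88 ± 0.46 and −3.03 ± 0.45 in PMs at days 0 and 3 (adjusted p = 0.00609 and 0.00356). Mstn, the muscle growth inhibitor, was higher by 1.09 ± 0.28 in PMs at day 3 (adjusted p = 0.0441), and the other members of the list were not called. The list medians after silencing were −0.44, −0.54 and −0.36 in C2C12 cells and −0.39, −0.19 and −0.08 in PMs. To day 3 in siControl cells, 5 of 7 rose in C2C12 cells, and 5 of 8 rose and 1 fell in PMs. The medians were 1.82 and 1.88, against −0.01 and 0.01 over all genes, of which 28.7% and 32.3% were called in either direction. Whether these rises are tied to Nfix was not tested. The largest rises were those of Myh7 (8.90 ± 0.65) and Ckm, muscle creatine kinase (8.44 ± 0.84), in C2C12 cells, and of Prkcq, the kinase PKC theta (5.44 ± 0.25), and Ckm (4.75 ± 0.34) in PMs. Sox6, a repressor of slow muscle genes, rose by 2.54 ± 0.16 (adjusted p = 7.56e-07) in PMs and did not exceed 17 counts in C2C12 cells.

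The genes whose log2 CPM followed each member most closely over the 24 libraries, among 16925 others, are given as a description, since libraries of a group and cell type share their level. For Runx1 they were Sspn, Ncam1 and Tas1r1 (Pearson r of 0.936, 0.929 and 0.925), and for Runx2 they were Wipf1, Pcbp2 and Api5 (0.971, 0.969 and 0.966). For Runx3 they were Dmrta2, Gm6206 and Fam83h (0.987, 0.987 and 0.98), and for Nfia they were Gca, Ano3 and Myo7a (0.987, 0.982 and 0.981). Runx3 and Nfia are the members with few counts in one of the cell types. For Nfib they were Phf17, Epha4 and Pcgf5 (0.871, 0.861 and 0.853), for Nfic they included Plekha6 and Caskin2 (0.864 and 0.809), and for Nfix they were D18Ertd653e, Col5a1 and Clec16a (0.937, 0.925 and 0.913). Among the members themselves, over the 12 PM libraries, r was −0.98 between Runx2 and Nfix, 0.94 between Nfic and Nfix and 0.91 between Nfib and Nfic. Over the 12 C2C12 libraries these were −0.24, −0.02 and −0.46, and the highest was 0.84 between Runx1 and Nfix. All of these points share the days of differentiation.

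The members lie on 5 chromosomes in mm9. Runx1 (ENSMUSG00000022952) spans chr16:92601712-92826311, Runx2 (ENSMUSG00000039153) chr17:44632936-44951746 and Runx3 (ENSMUSG00000070691) chr4:134676567-134733905. Nfia (ENSMUSG00000028565) spans chr4:97439425-97868605, Nfib (ENSMUSG00000008575) chr4:81936077-82351654, Nfic (ENSMUSG00000055053) chr10:80858931-80893750 and Nfix (ENSMUSG00000001911) chr8:87223775-87324243. The library kit does not keep strand, so reads from exons that 2 genes share cannot be assigned. In the GENCODE annotation, 14 genes overlap a member, and 6 share exonic bases with one. The most shared are 519 bases of Runx2 with Gm10497, which had 7 to 44 counts, and 137 bases of Nfix with G430095P16Rik, which had 4 to 144 counts. Supt3h, at 448 to 1021 counts, overlaps Runx2 with 0 exonic bases in common.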

How the data were processed

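Strand-unspecific poly(A) RNA-seq libraries of 24 samples were used, 2 biological replicates in each of 12 groups (C2C12 cells or PMs, siControl or siTead1/4, days 0, 3 and 6). The submitters' processing notes name CASAVA 1.8.2, TopHat2 2.0.10, Bowtie2 2.1.0, HTSeq 0.6.1 and DESeq2 1.8.1, and the mm9 genome. The authors deposited 1 table of raw counts per gene, which was the unit used here, with 25453830 to 52784510 counts per library. Its 48 normalized columns for these libraries, 36 columns of 12 libraries not listed for the series and its functional terms were not used.

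Counts were tested with edgeR 4.0.16 (limma 3.58.1, R 4.3.3) by the quasi-likelihood test with TMM library sizes and filterByExpr. Each cell type was fitted over its 12 libraries with 1 mean per group, and comparisons across cell types over all 24. P-values were adjusted by Benjamini and Hochberg over all genes tested (15303 in C2C12 cells, 16144 in PMs, 16926 in the joint fit). Calls required an adjusted p below 0.05 and an absolute log2 fold change above 1. Of the 7 members, 7 passed the filter in each fit. Alternatives were RLE size factors, DESeq2 1.42.0, no filter on low counts, the replicate number as a block, all 24 libraries in 1 fit and leaving out each library. The interactions of siRNA with day were added after the data were seen. The script was tested on simulated data.

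CPM used the TMM sizes of all 24 libraries. Intervals of ratios from pooled counts are exact binomial ones. Members and gene lists were chosen with earlier results of these data known. All members are named, as are Tead1 and Tead4, up to 4 called genes per list and cell type with the largest change, the 3 genes most like each member (1 of those for Nfic is not reported here), and genes that overlap a member on the genome. Same-numbered replicates were checked for shared deviations. In C2C12 cells 6 of 15 correlations between groups exceeded 0.1, and in PMs 14 of 15, where they ran from 0.05 to 0.5 with a median of 0.2. PM replicates of the same number thus deviated together to some degree. The main fits did not take the numbers as pairs and leave this shared part in the spread. Results with the replicate number as a block are given below.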

Additional observations from a re-analysis of the deposited data

Results flagged for a closer look

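A difference between the cell types in the change from day 0 was past the thresholds for Runx2 at both days and for Runx3 at day 6, by the interaction term of the 24-library fit. For Runx2 it was −1.37 at day 3 and −1.16 at day 6 on the log2 scale, PM minus C2C12. Every later siControl library was below every day 0 library of its cell type. At day 6 the value was −0.998 without replicate 1 of the PM libraries of day 6 and −0.97 without replicate 1 of the C2C12 libraries of day 6. For Runx3 the difference at day 6 was 2.52, on PM counts of 1 to 17. Without 1 library it ranged from 1.593 to 4.185, and its call was lost without any of 6 of its 8 libraries. No group had enough libraries for a test of single outlying samples.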

How the results depend on the processing

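Of 27 called values of the members, 27 kept their call and direction under every alternative that kept all libraries, and 17 also without any 1 library. The 27 include the Runx3 calls in siTead1/4 PMs, which are given as a description only. No called value changed sign. Members called without 1 library numbered 1 to 1 for siControl C2C12 cells at day 3 against day 0 (2 with all libraries), 1 to 2 at day 6, 0 to 1 for siTead1/4 C2C12 cells at day 3 and at day 6, 2 to 3 for siTead1/4 PMs at day 3, 3 to 4, 2 to 3 and 2 to 3 for PMs against C2C12 cells at days 0, 3 and 6, and 0 to 2 for the difference in siControl change at day 6. With all 24 libraries in 1 fit, 1 member (Runx2) rather than 0 was called in the added C2C12 interaction at day 3. Nfia at day 6 against day 0 in siControl C2C12 cells was called with no filter (1.74, adjusted p = 0.0121) and with all 24 libraries (1.79, adjusted p = 0.023), as was Runx3 in siControl PMs (1.86, adjusted p = 0.0372, and 1.93, adjusted p = 0.0341). The difference of the Nfia change at day 6 was called with no filter (−1.76, adjusted p = 0.025). These genes have counts near the depth limit.

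The replicate block changed no member's call. It moved the number of genes called by more than 1.5 times after silencing at day 6 (7 to 12 in C2C12 cells, 120 to 290 in PMs), in PMs between days 6 and 3 (452 to 732), in the differences of silencing between cell types (1 to 5, 212 to 327 and 6 to 34) and in the added interactions (0 to 5 and 0 to 1 in C2C12 cells, 53 to 287 and 101 to 325 in PMs). Among all alternatives that kept all libraries, genes called after silencing reached 480, 1055 and 387 in C2C12 cells at days 0, 3 and 6 with no filter (67, 195 and 7 otherwise), and ranged from 204 to 586, 312 to 804 and 60 to 335 in PMs (420, 532 and 120). The cause was not tested. Between days 6 and 3 they reached 102 in C2C12 cells and fell to 164 in PMs. For the silencing differences they reached 88, 853 and 146, and for the added interactions 745 and 318 in C2C12 cells and 373 and 413 in PMs. Counts of genes called over differentiation and between cell types stayed within 1.5 times.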
